A study of Homo sapiens with 4 samples.

Results

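The genes described here build the autophagosome and the lysosome. They were 41 genes listed by symbol, of 26733 genes in the deposited table, and 40 of them had a row; CTSL was not analysed here. RNA was measured in Jurkat cells, an established line of human T-cell acute lymphoblastic leukaemia, in 2 libraries of cells given GNE987 and 2 libraries of untreated cells. GNE987 is a degrader molecule in which a BET-bromodomain binder is joined to a binder of VHL, the substrate receptor of a ubiquitin ligase. The labels give a dose of 25 nmol without a volume and a time of 24 h, and no vehicle is named for the untreated cells. All libraries come from this single line, and whether replicates were separate cultures is not stated, so p-values reflect only how far these libraries differ from each other, a spread that may be technical.

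Autophagy encloses cell contents in a double membrane, the autophagosome, which fuses with the lysosome, where acid hydrolases digest the cargo. The ULK1 kinase complex starts the process, a lipid kinase complex with BECN1 marks the site, and ATG9A, ATG2A, WIPI proteins and VMP1 bring and expand the membrane. A ubiquitin-like conjugation machinery then couples ATG8 proteins (the LC3 and GABARAP families) to that membrane, and receptors such as SQSTM1 tie cargo to them. TFEB and TFE3 are related transcription factors that activate many autophagy and lysosome genes through a DNA element with the core CACGTG, which MYC also binds. By role, the list holds 22 autophagosome genes, both transcription factors, 9 lysosomal enzymes and 8 genes of the lysosomal membrane and of transport.

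The CACGTG core was read from RefSeq promoters (GRCh38.p14, 250 bases before to 50 bases after each start) for the 36 measured members that the table held. Both strands were searched. It was present in 8 of the 36, or 22.2%, against 8.77% of all 27305 genes of that table. The longer form TCACGTG, which contains the core and was also searched on both strands, was present in 8 of 36 as well, against 4.49% of all genes. Lysosomal genes held most of these matches. The core was found in 3 of 6 enzyme genes, 3 of 6 membrane and transport genes and 2 of 22 autophagosome genes. A match describes letters in a window and does not show that a factor binds there. The stretches before the start are shown for the lysosomal genes with a match and for ATG3 and ATG14, since they set the lysosomal members beside the autophagosome members; capitals mark CACGTG.
LAMP1 (chr13:113297027-113297122, plus strand): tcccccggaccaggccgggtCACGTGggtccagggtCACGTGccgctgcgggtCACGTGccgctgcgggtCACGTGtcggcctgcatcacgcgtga
LAMP1, second stretch (chr13:113297191-113297236, plus strand): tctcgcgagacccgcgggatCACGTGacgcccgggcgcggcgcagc
MCOLN1 (chr19:7522563-7522623, plus strand): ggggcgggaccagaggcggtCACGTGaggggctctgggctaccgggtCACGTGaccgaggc
CTSA (chr20:45891273-45891334, plus strand): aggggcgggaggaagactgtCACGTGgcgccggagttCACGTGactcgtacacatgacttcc
NEU1 (chr6:31862922-31862967, minus strand): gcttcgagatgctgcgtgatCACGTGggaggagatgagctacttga
ATP6V0D1 (chr16:67481191-67481236, minus strand): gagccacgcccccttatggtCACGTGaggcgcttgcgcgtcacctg
CTSD (chr11:1763949-1763994, minus strand): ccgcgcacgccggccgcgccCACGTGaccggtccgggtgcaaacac
ATG3 (chr3:112561963-112562000, minus strand): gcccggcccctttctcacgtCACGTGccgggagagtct
ATG14 (chr14:55411831-55411871, minus strand): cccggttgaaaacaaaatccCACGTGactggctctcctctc
LAMP1 had 6 copies in its window, 4 in its first stretch and 1 in its second; the other lay at the start and is not shown. Of the 8 genes with the core, LAMP1, MCOLN1, CTSA, NEU1 and ATP6V0D1 rose with GNE987, CTSD and ATG3 fell and ATG14 did not pass the test. Of all genes tested, 34.4% were higher and 37.2% lower. The letters went with both directions, and the calls of CTSA and CTSD lay near the threshold. The core was in 22.7% of the members that rose and 20% of those that fell. MAP1LC3B, SQSTM1, GUSB and NPC2, which also rose, had no CACGTG in the windows read.

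Total counts were between 16041022 and 18938465 per library. Counts are given as CPM (counts scaled to the TMM-adjusted total of the library), and 3 counts, taken as the limit for a gene without reads, equal 0.135 to 0.217 CPM; this covers counting error only. Each gene was tested with edgeR's quasi-likelihood test, with Benjamini-Hochberg adjustment over 15910 genes and a threshold of 0.05. Most genes moved in these cells. Of all genes tested, 71.6% passed, 34.4% higher and 37.2% lower. For 36 of the 40 members the second untreated library had a level between that of the first and the treated mean. The same held for 81.8% of all genes tested. Over genes that passed, it stood a median 21.2% of that way for members and 19.1% for all genes. The cause of this shift was not tested. The change without the second untreated library is thus given for each member whose fold it moves by over 1.5 times. T-cell markers were present in all 4 libraries, with summed levels of 1396 and 1531 CPM with GNE987 and of 2541 and 2415 CPM in untreated cells over 8 genes. The test passed for 6 of the 8 as lower and for 1 as higher, and their median was -2.53 on the log2 scale. Among them CD3E, a subunit of the T-cell receptor complex, was at 716.5 and 822.5 CPM with GNE987, against 506.8 and 639.3 CPM in untreated cells (adjusted p = 0.0688), while LCK, a kinase of that receptor, was at 60.1 and 62.1 CPM with GNE987, against 950.6 and 782.7 CPM in untreated cells. In bulk RNA, fewer cells of a type and less RNA per cell cannot be told apart.

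More of the listed genes were higher than lower with GNE987. Of 40 tested, 24 rose, 10 fell and 6 did not pass. All 40 passed the filter on low counts, CTSZ only through the treated libraries, where it was high. The background for these counts is 34.4% higher and 37.2% lower, and the median log2 fold change was 0.56 over the members and -0.034 over all genes tested. The treated and untreated libraries did not overlap for 38 members, 26 higher and 12 lower, against 44.6% and 46.6% of all genes. With library size alone in place of TMM, 17 members were higher and 11 lower, against 25.8% and 45.0% of all genes. That setting moved the median of all genes by -0.37, and upper-quartile factors moved it by 0.20. Without GNE987 replicate 1 the counts were 14 and 5, against 13.0% and 25.2% of all genes, and without GNE987 replicate 2 they were 13 and 6, against 13.5% and 25.6%, with the spread then estimated from the untreated pair alone. The direction and the call of 13 of the 24 rises and 5 of the 10 falls held in every alternative that tested the gene. These rises were those of ULK1, ATG9A, ATG2A, ATG12, MAP1LC3B, SQSTM1, TFE3, CTSB, CTSZ, GUSB, ATP6V0D1, NPC1 and NPC2, and the falls were those of ATG13, ATG3, ATG7, GABARAPL1 and TFEB.

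**Figure D1:**
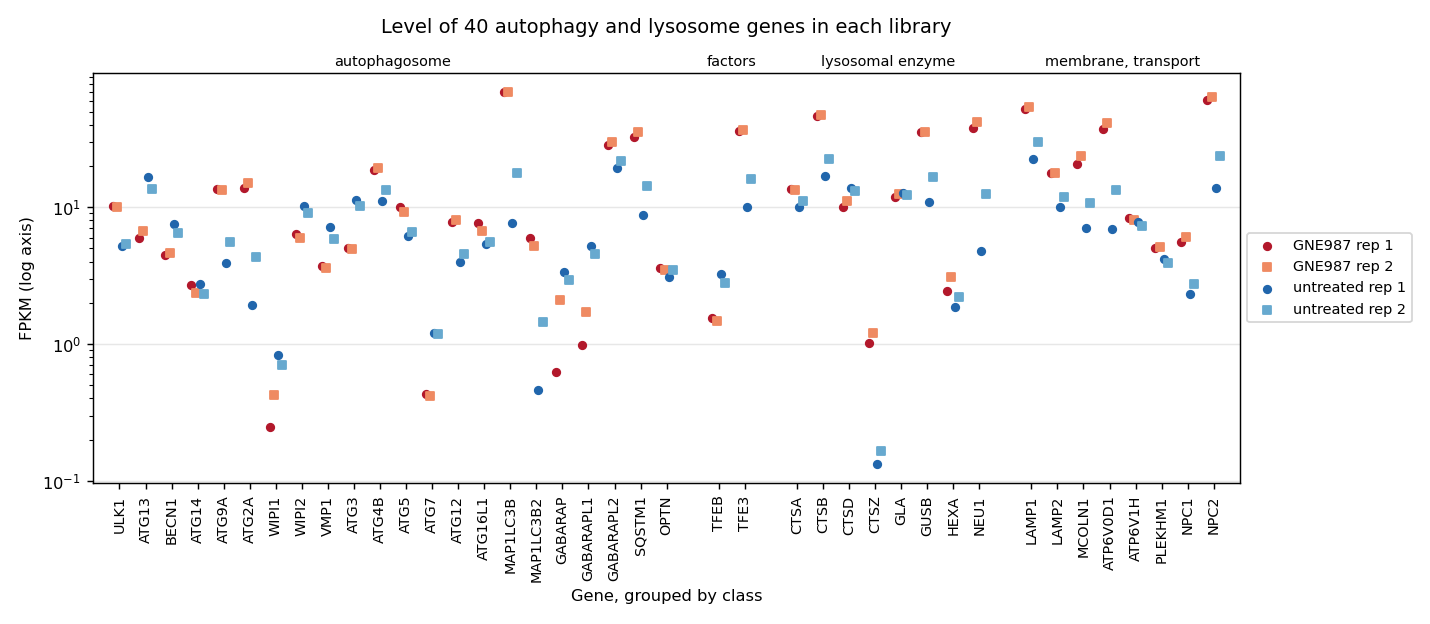
Deposited FPKM (log axis) of 40 genes in each of the 4 libraries, with 1 point per library and genes grouped by class. MAP1LC3B has the highest mean level of the list with GNE987, at 69.9 FPKM, against 12.7 FPKM in untreated cells.

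The classes differed in how their genes divided. Among 22 autophagosome genes 11 rose, 8 fell and 3 did not pass, with a median log2 fold change of 0.25. The background for this and the next counts is 34.4% higher and 37.2% lower over all genes tested. The autophagosome division is not read as standing apart from it. Of 8 lysosomal enzymes 5 rose and 1 fell, with a median of 0.83. Of 8 genes of the lysosomal membrane and transport 7 rose and 0 fell, with a median of 1.11. The enzyme rises include CTSZ, which passed the filter on low counts only through the treated libraries. A filter of 10 CPM in 2 libraries left it out. The medians were then 0.57 for 19 autophagosome genes, 0.60 for 7 enzymes and 1.28 for the 8 membrane and transport genes. Of these, 10, 5 and 8 were higher and 7, 0 and 0 lower, against 39.1% and 41.8% of all genes. The enzyme and autophagosome medians were thus not apart in that setting. With library size alone the autophagosome median turned to -0.12 with 7 genes higher and 9 lower. The enzymes then had 4 higher and 1 lower (median 0.46) and the membrane and transport genes 5 higher and 0 lower (median 0.74). In that setting 25.8% of all genes were higher and 45.0% lower. Without GNE987 replicate 1 and without GNE987 replicate 2, the medians were 0.18 and 0.30 for the autophagosome genes and 0.91 and 0.79 for the enzymes. They were 1.14 and 1.07 for the membrane and transport genes. Fewer genes of each class passed as higher in these settings, as among all genes. Leaving out untreated replicate 2 gave medians of 0.38 for the autophagosome genes, 1.08 for the enzymes and 1.36 for the membrane and transport genes. No test was run between the classes, because the genes were listed with results of these data in view.

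A ratio within a library needs no scaling between libraries. The summed FPKM (the authors' length-scaled values) of the 22 autophagosome genes was 252.9 and 258.9 in the GNE987 libraries, against 143.4 and 160.9 in untreated replicates 1 and 2. For the 8 enzymes the sum was 158.4 and 165.3 with GNE987, against 71.2 and 90.4 in untreated cells. Both sums were higher in each treated library than in each untreated one. The enzyme sum divided by the autophagosome sum was 0.626 and 0.638 with GNE987, against 0.496 and 0.562 in untreated cells. A single gene weighed on this ratio. Without MAP1LC3B it was 0.865 and 0.875 with GNE987, against 0.524 and 0.632 in untreated cells. The groups did not overlap in either form. MAP1LC3B made up more of the autophagosome sum with GNE987, so leaving it out could only widen the difference. The ratio without single enzyme genes was not computed. NEU1 alone held 37.7 and 41.8 FPKM of the enzyme sum with GNE987, against 4.79 and 12.4 FPKM in untreated cells. The lack of overlap is thus not shown to hold without single enzyme genes.

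**Figure D2:**
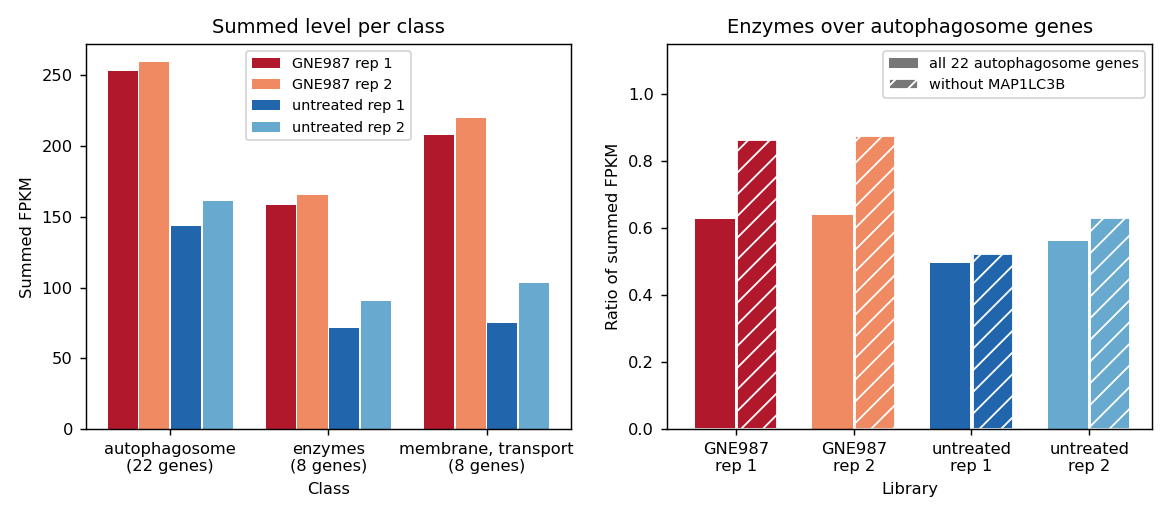
Left: summed FPKM of the autophagosome genes, the enzymes and the membrane and transport genes in each library. Right: enzyme sum over autophagosome sum in each library, with all 22 autophagosome genes (plain bars) and without MAP1LC3B (hatched); the treated bars reach 0.626 and 0.638, above 0.496 and 0.562 in untreated cells.

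The starting kinase and its partner went opposite ways. ULK1, the kinase that initiates autophagosome formation, was at 78.3 and 77.1 CPM with GNE987, against 39.4 and 42.2 CPM in untreated cells. Its log2 fold change was 0.93 ± 0.11 (SE, adjusted p = 0.0016). ATG13, the adaptor that holds the ULK1 complex together, was at 42.4 and 47.0 CPM with GNE987, against 116 and 97.9 CPM in untreated cells (-1.26 ± 0.14, adjusted p = 0.00128). The libraries of the groups did not overlap for either gene. BECN1, a subunit of the lipid kinase complex, fell to 29.5 ± 0.357 CPM with GNE987, against 45.6 ± 4.25 CPM in untreated cells (SD, n = 2 each; log2 fold change -0.63 ± 0.13). ATG14, which directs that complex to autophagy, had 13.0 ± 1.24 CPM with GNE987 and 13.0 ± 1.39 CPM in untreated cells (adjusted p = 0.999). The call of BECN1 was lost without GNE987 replicate 1 (adjusted p = 0.0846) and without GNE987 replicate 2 (0.0766).

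Among the genes of membrane supply, ATG2A and ATG9A rose, and WIPI1, WIPI2 and VMP1 fell. ATG2A, which transfers lipids into the growing membrane, was at 110.1 and 118.6 CPM with GNE987, against 15.2 and 35.3 CPM in untreated replicates 1 and 2. Its log2 fold change was 2.18 ± 0.39 (adjusted p = 0.00525), and 2.97 without untreated replicate 2. ATG9A, the scramblase whose vesicles seed the membrane, was at 64.7 and 63.8 CPM with GNE987, against 18.5 and 27.1 CPM in untreated cells (log2 fold change 1.498 ± 0.202). All 4 treated values of these genes lay above the untreated ones. Of the exonic bases of ATG9A, 38.8% are shared with the gene model AC068946.2 on the same strand, so its level is uncertain. WIPI2, a phosphoinositide reader that recruits the conjugation machinery, fell by 0.65 on the log2 scale, and VMP1, an endoplasmic reticulum protein, fell by 0.82. WIPI1, a second reader, was near the bottom of the list at 0.853 and 1.45 CPM with GNE987, against 2.83 and 2.47 CPM in untreated cells (adjusted p = 0.0392). The calls of WIPI2 and VMP1 were lost without GNE987 replicate 1 (adjusted p = 0.0623 and 0.0531) and without GNE987 replicate 2 (0.085 and 0.0576). That of WIPI1 was lost in both settings too (0.2 and 0.072), and with upper-quartile factors (0.0676) and DESeq2 (0.133).

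Of the 6 listed genes of the conjugation machinery 4 were higher and 2 lower, against 34.4% and 37.2% of all genes tested. Genes of the same step did not all move together. Of the ATG8 proteases outside the list, ATG4D fell (-2.99 ± 0.23, adjusted p = 0.000466) and ATG4A rose (0.39 ± 0.14, adjusted p = 0.0491). ATG4C did not pass (-0.39 ± 0.19, adjusted p = 0.108). ATG7, the enzyme that activates both ubiquitin-like proteins, was at 3.87 and 3.70 CPM with GNE987, against 10.6 and 10.8 CPM in untreated cells (log2 fold change -1.49 ± 0.21, adjusted p = 0.00246). ATG3, which passes ATG8 proteins on to the lipid, was at 31.3 and 30.7 CPM with GNE987, against 69.0 and 64.2 CPM in untreated cells (-1.10 ± 0.11, adjusted p = 0.001). Both activating and transferring enzymes were thus lower in each treated library. The genes of the ATG12, ATG5 and ATG16L1 complex, which places ATG8 on the membrane, were higher. ATG12 was at 69.8 and 71.9 CPM with GNE987, against 35.4 and 41.8 CPM in untreated cells (0.88 ± 0.13, adjusted p = 0.00301). ATG5 had a log2 fold change of 0.60 ± 0.12 and ATG16L1 one of 0.40 ± 0.13. ATG4B, the protease that trims ATG8 proteins, had one of 0.63 ± 0.14. The last 3 genes lost their calls with library size alone (adjusted p = 0.189, 0.877 and 0.138) and without GNE987 replicate 1 (0.093, 0.251 and 0.0935). They also lost them without GNE987 replicate 2 (0.0586, 0.102 and 0.104).

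The make-up of the ATG8 family differed between the groups. MAP1LC3B, the LC3 gene used as the usual marker of autophagosomes, was at 375.9 and 376.5 CPM with GNE987, against 40.5 and 96.9 CPM in untreated replicates 1 and 2. That is 5.48 times the untreated mean, and the log2 fold change was 2.45 ± 0.41 (adjusted p = 0.00439), or 3.27 without untreated replicate 2. MAP1LC3B lies on chromosome 16 from 87383995 to 87404779 (GRCh38, plus strand). GABARAPL1, a GABARAP-family member, went the other way, at 4.07 and 7.03 CPM with GNE987, against 21.4 and 19.2 CPM in untreated cells (-1.87 ± 0.28, adjusted p = 0.00317). GABARAPL2, the most abundant of its family here, was at 87.7 and 92.5 CPM with GNE987, against 59.0 and 67.5 CPM in untreated cells (0.51 ± 0.12, adjusted p = 0.0139). Its call was lost with library size alone (adjusted p = 0.367), without GNE987 replicate 1 (0.0972) and without GNE987 replicate 2 (0.129). GABARAP had 1.44 and 4.78 CPM with GNE987, against 7.63 and 6.81 CPM in untreated cells (adjusted p = 0.0873), and by ratio the treated libraries differed more from each other for this gene than for any other member. With 55.7% of its exonic bases shared with overlapping gene models, its level is uncertain. Its log2 fold change was -1.22, and -0.59 without GNE987 replicate 1 and -2.32 without GNE987 replicate 2. It passed, as lower, with library size alone (adjusted p = 0.0239), and without GNE987 replicate 2 (0.0239), untreated replicate 1 (0.000261) or untreated replicate 2 (5.21e-05).

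MAP1LC3B2 is a near-identical copy of MAP1LC3B on chromosome 12. The coding sequences, read from GENCODE release 29 transcripts, are 378 bases each and differ at 2 of them (99.47% identity), with 307 identical bases in a row. The stretches around both differences are shown because they are all that could tell coding reads of one gene from those of the other. Capitals mark the differing bases, and positions count from the first base of the start codon.
MAP1LC3B, coding positions 1 to 60: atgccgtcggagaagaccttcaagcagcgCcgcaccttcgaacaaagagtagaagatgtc
MAP1LC3B2, coding positions 1 to 60: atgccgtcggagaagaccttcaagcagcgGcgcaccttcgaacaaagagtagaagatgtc
MAP1LC3B, coding positions 308 to 367: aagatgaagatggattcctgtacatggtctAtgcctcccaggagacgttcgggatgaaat
MAP1LC3B2, coding positions 308 to 367: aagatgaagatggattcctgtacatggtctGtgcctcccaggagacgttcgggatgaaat
MAP1LC3B2 had 10.7 and 9.28 CPM with GNE987, against 0.808 and 2.62 CPM in untreated cells (log2 fold change 2.55 ± 0.53, adjusted p = 0.00875). The change was 3.67 without untreated replicate 2 and 1.93 without untreated replicate 1. How the authors' counting split such reads is not given, so its values are uncertain. Without GNE987 replicate 1 it did not pass (adjusted p = 0.0661), nor without GNE987 replicate 2 (0.0557).

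The FPKM shares within the family need no scaling between libraries. MAP1LC3B and MAP1LC3B2 together made up 71.5% and 68.9% of ATG8-family FPKM with GNE987, against 22.3% in untreated replicate 1 and 39.7% in untreated replicate 2. The 3 GABARAP genes made up 28.5% and 31.1% with GNE987, against 77.7% and 60.3% in untreated cells. The LC3 genes thus held the larger share in both treated libraries and the smaller one in both untreated libraries. The summed FPKM of the GABARAP genes was 30.11 and 33.98 with GNE987, against 28.1 and 29.1 in untreated cells, while that of the LC3 genes was 75.7 and 75.3 with GNE987, against 8.08 and 19.2 in untreated cells.

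**Figure D3:**
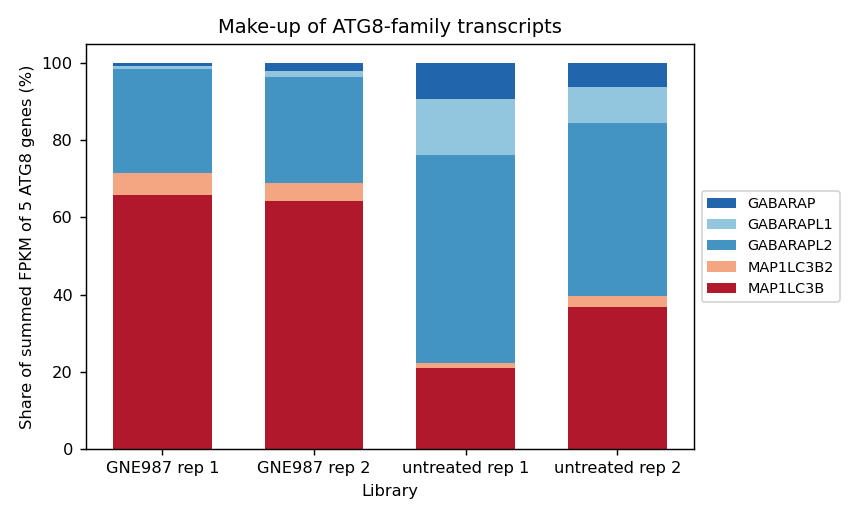
Share of each ATG8 gene in the summed FPKM of the family, 1 bar per library, in percent. MAP1LC3B takes 65.9% and 64.2% of the bar with GNE987, against 21.1% and 36.7% in untreated cells.

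Of the cargo receptors, 1 rose. SQSTM1 (p62), which binds ubiquitinated cargo, was at 254.3 and 275.7 CPM with GNE987, against 67.2 and 111.7 CPM in untreated cells (log2 fold change 1.57 ± 0.26, adjusted p = 0.00404). All treated values were above the untreated ones, and without untreated replicate 2 the change was 2.03. Of its exonic bases 22% are shared with the genes MGAT4B and MRNIP on the opposite strand. OPTN, the receptor optineurin, had 18.3 ± 0.619 CPM with GNE987 and 17.1 ± 1.78 CPM in untreated cells (adjusted p = 0.548), and the groups overlapped.

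The transcription factors of the pathway moved apart. TFE3 was at 157.0 and 160.1 CPM with GNE987, against 43.2 and 70.5 CPM in untreated cells (log2 fold change 1.48 ± 0.24, adjusted p = 0.00407). TFEB was at 8.86 and 8.33 CPM with GNE987, against 18.4 and 16.2 CPM in untreated cells (-1.01 ± 0.17, adjusted p = 0.00401). The groups did not overlap for either gene. By FPKM, TFE3 was 23.4 and 25.3 times as abundant as TFEB with GNE987, against 3.10 and 5.72 times in untreated cells. TFE3 was thus the more abundant message in every library. The transcripts give no information on whether the proteins were in the nucleus, where these factors act. TFE3 lies on the X chromosome from 49028726 to 49043486 and TFEB on chromosome 6 from 41683978 to 41736259 (GRCh38, both on the minus strand).

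**Figure D4:**
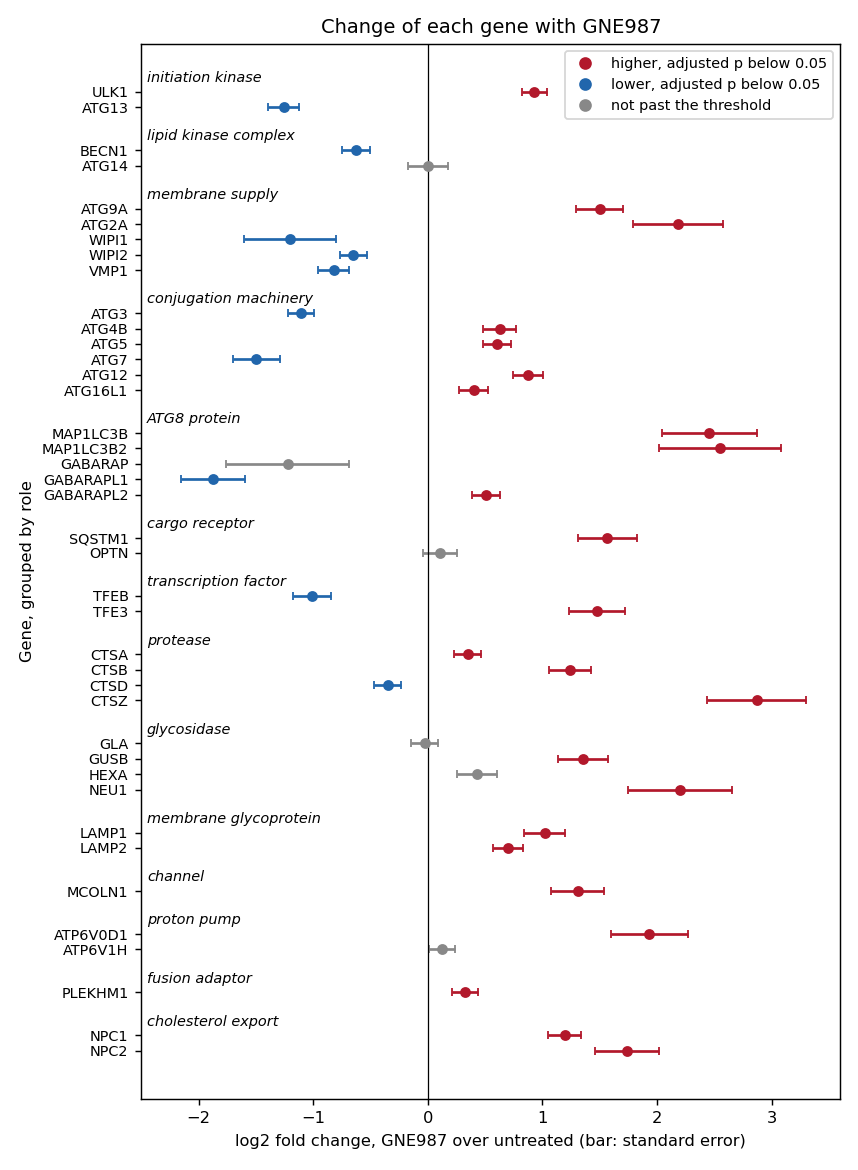
Log2 fold change of each gene, GNE987 over untreated, with its standard error, ordered by role; red is higher and blue lower at an adjusted p below 0.05, grey did not pass. ULK1, ATG2A, MAP1LC3B and TFE3 on the right each share a role with a gene on the left, whereas the membrane and transport genes all lie at 0.12 or above with TMM scaling (ATP6V1H and PLEKHM1 fall below 0 with library size alone).

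Among the lysosomal proteases, cathepsin genes rose in 3 of 4 cases, against 34.4% of all genes tested. CTSB, a cysteine protease, was at 348.3 and 353.6 CPM with GNE987, against 125.8 and 172.0 CPM in untreated cells (log2 fold change 1.24 ± 0.18, adjusted p = 0.00301). CTSZ, a carboxypeptidase, was at 2.10 and 2.46 CPM with GNE987, against 0.269 and 0.346 CPM in untreated cells (2.87 ± 0.43, adjusted p = 0.00317). The treated libraries were higher than the untreated ones for both genes. Only 6 and 7 reads of CTSZ were counted in untreated replicates 1 and 2, so the size of that change is loosely fixed. With 32 and 34 reads in the GNE987 libraries, it passed the filter on low counts through these alone. Its entry into the enzyme count and median thus depended in part on the filter. CTSA, the protective protein of the neuraminidase complex, was at 80.7 and 79.3 CPM with GNE987, against 58.6 and 67.2 CPM in untreated cells (0.35 ± 0.12, adjusted p = 0.0454). CTSD, the aspartic protease, fell to 32.0 and 35.1 CPM with GNE987, against 42.9 and 42.5 CPM in untreated cells (-0.35 ± 0.12, adjusted p = 0.0419). These 2 calls lay near the threshold. With library size alone CTSA was at -0.023 (adjusted p = 0.887), and CTSD did not pass with RLE factors (0.101), DESeq2 (0.193) or the replicate block (0.0819). Neither passed without GNE987 replicate 1 (0.232 for CTSA and 0.272 for CTSD) or without GNE987 replicate 2 (0.207 and 0.142). Overlapping gene models share 28.5% of the exonic bases of CTSA and 52.7% of those of CTSD.

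The glycosidases ran from no detectable change to a large rise. NEU1, the sialidase that works in a complex with CTSA, was at 184.5 and 203.5 CPM with GNE987, against 23.1 and 61.4 CPM in untreated replicates 1 and 2. Its log2 fold change was 2.201 ± 0.452 (adjusted p = 0.00822), or 3.12 without untreated replicate 2. With GNE987 replicate 1 left out its adjusted p was 0.0523, and with GNE987 replicate 2 left out 0.0587. GUSB, the beta-glucuronidase, was at 142.9 and 142.0 CPM with GNE987, against 43.9 and 67.7 CPM in untreated cells (1.35 ± 0.22, adjusted p = 0.00397). NEU1 and GUSB were higher in both treated libraries than in either untreated one. HEXA, the alpha subunit of beta-hexosaminidase, had 31.3 and 39.1 CPM with GNE987, against 23.6 and 28.7 CPM in untreated cells (adjusted p = 0.0699). It passed, as higher, with RLE factors (adjusted p = 0.039), upper-quartile factors (0.0217), the replicate block (0.0498) and the filter of 10 CPM (0.0282), and without untreated replicate 1 (0.0398) or untreated replicate 2 (1.37e-05). GLA, the alpha-galactosidase, had 27.6 and 28.5 CPM with GNE987, against 28.7 and 28.5 CPM in untreated cells (-0.029 ± 0.12, adjusted p = 0.834).

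Listed genes of the lysosomal membrane and of transport rose in 7 of 8 cases, against 34.4% of all genes tested. Of 29 further genes of that class 13 were higher and 10 lower. ATP6V0D1, a subunit of the proton pump that acidifies the lysosome, was at 310.1 and 340.03 CPM with GNE987, against 56.9 and 113.5 CPM in untreated replicates 1 and 2 (log2 fold change 1.93 ± 0.33, adjusted p = 0.00472), and the change was 2.57 without untreated replicate 2. ATP6V1H, another subunit of the same pump, had 43.3 and 41.3 CPM with GNE987, against 39.7 and 37.9 CPM in untreated cells (0.12 ± 0.11, adjusted p = 0.356). Of these pump subunits, ATP6V0D1 alone passed the test. NPC2 and NPC1, which pass cholesterol out of the lysosome from the lumen and through its membrane, both rose. NPC2 was at 169.0 and 178.7 CPM with GNE987, against 37.7 and 66.6 CPM in untreated cells (1.74 ± 0.28, adjusted p = 0.00377). NPC1 was at 57.2 and 61.7 CPM with GNE987, against 23.4 and 28.6 CPM in untreated cells (1.19 ± 0.15, adjusted p = 0.00173). Each treated value of these genes exceeded each untreated one.

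LAMP1, the main glycoprotein of the lysosomal membrane, was at 305.3 and 312.9 CPM with GNE987, against 129.1 and 175.8 CPM in untreated cells (log2 fold change 1.02 ± 0.18, adjusted p = 0.00509). LAMP2, its relative, was at 99.2 and 99.9 CPM with GNE987, against 55.8 and 67.01 CPM in untreated cells (0.70 ± 0.13, adjusted p = 0.0064). MCOLN1, the calcium channel mucolipin 1, was at 83.4 and 94.6 CPM with GNE987, against 28.0 and 43.9 CPM in untreated cells (1.31 ± 0.23, adjusted p = 0.00516). The groups stood apart for all 3 genes. PLEKHM1, an adaptor for fusion with the lysosome, was at 46.9 and 47.5 CPM with GNE987, against 38.5 and 36.9 CPM in untreated cells (0.32 ± 0.11, adjusted p = 0.0421), and at -0.050 with library size alone (adjusted p = 0.771). LAMP2 did not pass with library size alone (adjusted p = 0.0650). LAMP1, LAMP2 and PLEKHM1 did not pass without GNE987 replicate 1 (adjusted p = 0.0525, 0.0681 and 0.205). LAMP1, LAMP2, MCOLN1 and PLEKHM1 did not pass without GNE987 replicate 2 (0.0558, 0.07, 0.0525 and 0.219).

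The order of levels within the list changed as well. By mean FPKM, LAMP1 (26.2), GABARAPL2 (20.6), CTSB (19.8) and NPC2 (18.7) led in untreated cells. With GNE987, MAP1LC3B (69.9), NPC2 (62.5), LAMP1 (53.2) and CTSB (46.7) led. MAP1LC3B stood at rank 9 and NEU1 at rank 19 of 40 in untreated cells, and they stood at ranks 1 and 5 with GNE987. ATG13 went the other way and was at rank 24 with GNE987, against rank 5 in untreated cells. At the low end, WIPI1, ATG7 and CTSZ held the last 3 places with GNE987.

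Wider lists of the same pathways, which hold none of these members, held genes of both directions, as did all genes tested, of which 34.4% were higher and 37.2% lower. No list is read as standing apart from that background. Of 26 tested further autophagosome genes 11 were higher and 8 lower (median log2 fold change 0.11), with changes from -3.42 to 1.92. SNAP29, a fusion SNARE, had 212.6 ± 5.88 CPM with GNE987 and 63.8 ± 18.3 CPM in untreated cells (1.74 ± 0.22, adjusted p = 0.00184). STX17 of the same list fell (-3.15 ± 0.30, adjusted p = 0.000794). Of 38 further lysosomal hydrolases and their activators 19 were higher and 8 lower (median 0.34). PSAP, the saposin precursor, was at 2068 and 2232 CPM with GNE987, against 601.6 and 942.3 CPM in untreated cells (1.48 ± 0.24, adjusted p = 0.00398), while PPT1, a thioesterase, fell by 0.80 on the log2 scale (adjusted p = 0.00398). Of 15 further proton pump subunits and accessory proteins 5 were higher and 4 lower (median 0.28), with ATP6V1E1 at 1.25 ± 0.18 and ATP6V0B at 0.32 ± 0.12 (adjusted p = 0.0603). Of 29 further genes of the lysosomal membrane and transport 13 were higher and 10 lower (median 0.22). CD164, an endolysosomal sialomucin, was at 1.12 ± 0.16 (adjusted p = 0.00255) and M6PR, a receptor that sorts enzymes to the lysosome, at -0.0023 ± 0.11 (adjusted p = 0.985). With library size alone the medians of these 4 lists turned to -0.27, -0.030, -0.089 and -0.15. Then 8, 12, 4 and 6 genes were higher and 10, 14, 7 and 12 lower, against 25.8% and 45.0% of all genes. Without GNE987 replicate 1 the medians were 0.054, 0.33, 0.24 and 0.24, and without GNE987 replicate 2 they were 0.16, 0.34, 0.29 and 0.18. Fewer genes of each list passed as higher in these left-out settings, as among all genes. The pump list had 8 higher when either untreated library was left out.

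Genes that regulate TFEB and TFE3 changed in both directions. Of 8 tested, 5 rose and 3 fell, against 34.4% and 37.2% of all genes. With either GNE987 library left out fewer passed in each direction, as among all genes. FNIP1, a partner of folliculin in a complex that acts on Rag GTPases and helps keep these factors in the cytoplasm, was at 110.4 and 96.7 CPM with GNE987, against 13.5 and 28.4 CPM in untreated cells (log2 fold change 2.31 ± 0.35, adjusted p = 0.00333). RRAGA, a Rag GTPase of the lysosomal surface, was at 1.65 ± 0.28 and FLCN, folliculin itself, at 1.00 ± 0.19. The largest change of the 8 was a fall. RRAGD, another Rag GTPase, was at 2.04 and 2.39 CPM with GNE987, against 28.9 and 24.0 CPM in untreated cells (-3.58 ± 0.20, adjusted p = 0.000298). PPP3CB, a catalytic subunit of calcineurin, the phosphatase that acts on TFEB, fell by 1.55 on the log2 scale (adjusted p = 0.0038). PPP3CA, another catalytic subunit, rose by 0.78 (adjusted p = 0.0198). RRAGC, also a Rag GTPase, rose by 1.44 (adjusted p = 0.0017), and FNIP2 fell by 0.53 (adjusted p = 0.0248). Related genes of this list thus went opposite ways. MITF, a relative of TFEB and TFE3, was not analysed here.

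**Figure D5:**
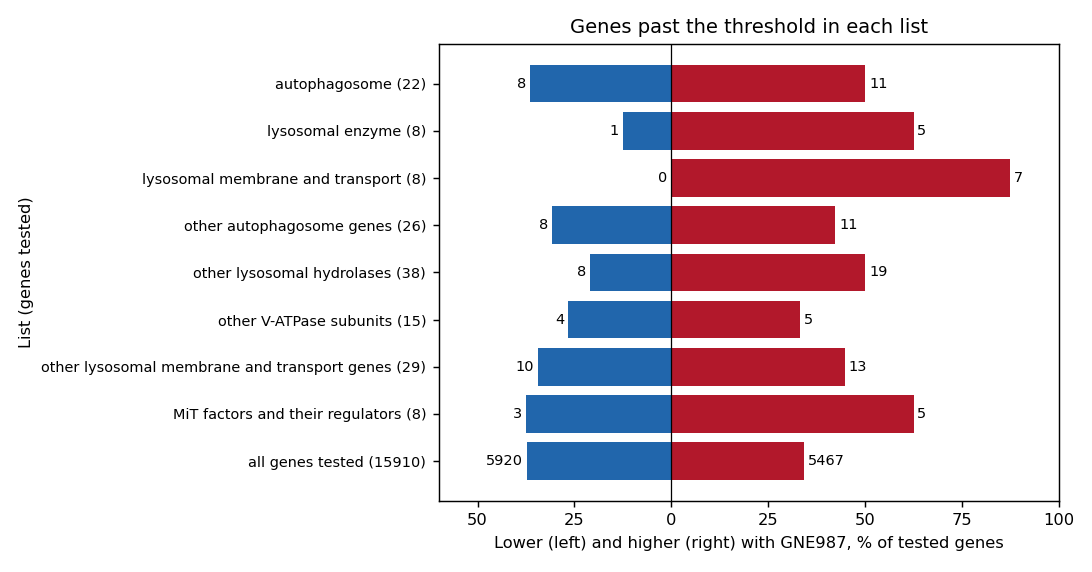
Percentage of tested genes that were higher (right, red) or lower (left, blue) with GNE987 in each class and in the wider lists, with the number of genes at each bar and the number tested in brackets. The 3 classes of members are at the top and all genes tested, with 34.4% higher and 37.2% lower, at the bottom; with library size alone the medians of the autophagosome class and of the first 4 wider lists turn below 0.

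Myeloid cells are rich in lysosomes, and their markers were measured beside these genes. The summed level of 11 myeloid markers was 279.1 and 286.3 CPM with GNE987, against 133.5 and 167.2 CPM in untreated replicates 1 and 2. Of the 7 tested, CD14, LYZ and CSF1R rose and 0 fell, against 34.4% and 37.2% of all genes. These 3 genes met the filter on low counts only because of the treated libraries, and so did MPO and ITGAM. The division of the 7 is thus not read against that background, since the filter in part fixed its direction. LYZ had 16 and 18 reads with GNE987, against 2 and 7 in untreated cells. For CSF1R the reads were 15 and 15 with GNE987, against 2 and 3 in untreated cells. With either GNE987 library left out 0 passed, and with either untreated library left out 5 were higher. CD14 was among those that rose, at 24.0 and 26.5 CPM with GNE987, against 0.135 and 4.49 CPM in untreated cells. MPO was at 72.6 and 77.3 CPM with GNE987, against 0.0898 and 15.5 CPM in untreated replicates 1 and 2. ITGAM was at 43.1 and 40.4 CPM with GNE987, against 0.135 and 9.23 CPM in untreated cells. With adjusted p-values of 0.0702 and 0.0531 these genes did not pass, and the untreated libraries differed widely from each other for both. AIF1 made up much of the sum, at 123.4 and 127.2 CPM with GNE987, against 119.1 and 124.0 CPM in untreated cells. CD33 was at 0 in both treated libraries and CD68 at 0.328 and 0.290 CPM there, against 0.224 and 0.198 CPM in untreated cells, and ELANE was at 0 in both untreated libraries. The part of these markers in the rise of the lysosomal genes was not tested.

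By the authors' deposited table, 29 of the 40 members had an adjusted p under 0.05, 21 of them higher and 8 lower. These values come from the authors' own test. The share of all genes under that threshold in their values was not counted, so these numbers are not read as a result about the members.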

How the data were processed

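RNA of 2 GNE987-treated and 2 untreated Jurkat libraries was, per the labels' protocols, extracted with TRIzol and made into TruSeq libraries, a kit that does not mark strand. HISAT2 2.2.0 and hg38 are named in the submitters' processing notes; no source used here names the counting tool, the annotation or a strand setting. The authors deposited raw counts, a normalized signal (counts divided by 1 factor per library), FPKM, and their own log2 fold change, p-value and adjusted p-value per gene. From the values and column names, the count columns are unnormalized and were the only ones tested. FPKM served for levels between genes, and the normalized signal was not used.

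Counts were filtered with filterByExpr (minimum count 10, minimum total 15), which kept 15910 of 26733 genes, scaled with TMM and tested with glmQLFit and glmQLFTest of edgeR 4.0.16 in R 4.3.3 (2 residual degrees of freedom). The standard error is the log2 fold change divided by the square root of F. The procedure was tested on simulated data. Alternatives were RLE and upper-quartile factors, library size alone, no filter, a filter of 10 CPM in 2 libraries, DESeq2 1.42.0, robust estimation, a replicate block, and omission of each library in turn. Coordinates and exon overlaps came from GENCODE release 29 (GRCh38), and promoters from RefSeq (GRCh38.p14). Members, lists and the naming rule (all members, and of each further list genes among the 3 with the highest mean CPM) were chosen with earlier results of these data known. CD14, LYZ, CSF1R, CD33, CD68, ELANE, STX17, RRAGC, RRAGD, FNIP2, PPP3CA and PPP3CB, outside that rule, were named after their values were seen. The same holds for S100A9, ATG4A, ATG4C and ATG4D. A planned comparison of the ATG8 protein sequences was not run here, and coding sequences were compared in its place.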

Additional observations from a re-analysis of the deposited data

How the results depend on the processing

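The number of genes higher with GNE987 was 5467, and 2062 and 2147 without GNE987 replicates 1 and 2 (up to 6534 in the other left-out settings); the number lower was 5920, and from 4008 to 6387 with 1 library left out. Counts of members ranged from 13 to 25 higher and from 5 to 11 lower with 1 library left out. The autophagosome genes then had 6 to 11 higher and 4 to 9 lower, and the enzymes 3 to 6 higher and 0 to 1 lower. The autophagosome count of rises was 7 with library size alone. The enzyme count of falls, CTSD, was 0 with RLE factors, upper-quartile factors, the filter of 10 CPM, DESeq2 and the replicate block. The autophagosome median was 0.45 with upper-quartile factors, -0.12 with library size alone, 0.11 without a filter, 0.57 with the filter of 10 CPM, and 0.18 to 0.38 with 1 library left out. The enzyme median was 0.46 with library size alone, 0.60 with the filter of 10 CPM, and 0.66 to 1.08 with 1 library left out.

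The sign turned for genes near 0. ATG14 was at 0.0915 with RLE factors and with DESeq2, 0.20 with upper-quartile factors, 0.17 with the filter of 10 CPM, 0.000346 with the replicate block, and -0.101 to 0.11 with 1 library left out. GLA was at 0.0631 with RLE factors and 0.0630 with DESeq2, 0.17 with upper-quartile factors, 0.14 with the filter of 10 CPM and -0.0522 to 0.0197 with 1 library left out. OPTN was at -0.26 with library size alone and -0.0415 without a filter, ATP6V1H at -0.25 and -0.0220, and CTSA and PLEKHM1 at -0.0229 and -0.0504 with library size alone. RLE factors, upper-quartile factors and library size alone change only the scaling, and moved the median of all genes by 0.0919, 0.198 and -0.37. For the other settings the cause was not tested. With the replicate block 22 members were higher and 8 lower, of 9801 genes called, and the calls of WIPI1, ATG16L1, CTSA, CTSD and PLEKHM1 were lost. No label says that same-numbered libraries belong together, and their deviations from the group means had a correlation of -0.0039 across 15910 genes. Without a filter the calls of ATG16L1, GABARAPL2, CTSA and PLEKHM1 were lost. CTSZ and WIPI1, at under 3 CPM, are limited by depth.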
